A study of Mus musculus with 12 samples.

Results

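The genes of the unfolded protein response and the heat shock response were examined in the cerebral cortex of mice with and without a Cre driver acting on loxP-flanked Nsd1. They comprised 41 genes, taken by name from a list that was chosen with earlier results of these data known. All were present among the 34193 rows of the deposited expression table. Of the 41, 27 belong to the endoplasmic reticulum (ER) and integrated stress arms, and 14 are the heat shock factor Hsf1 and chaperones of the cytosol and mitochondria.

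Total RNA of the cortex was sequenced at 8 weeks of age, from 250 ng of RNA after removal of ribosomal RNA, with a kit that keeps the strand. The 6 conditional knockout (cKO) samples had the genotype Nsd1 flx/flx; Nestin-cre +/-, and the 6 control samples Nsd1 flx/flx; Nestin-cre -/-. Both groups thus carried loxP-flanked alleles of Nsd1, a histone methyltransferase gene, and differed by the transgene, whose Nestin promoter drives Cre in the neural lineage and so in the ancestors of neurons, astrocytes and oligodendrocytes rather than of microglia. No group carried Cre without the loxP-flanked alleles, so an effect of the transgene itself cannot be told apart from one of Nsd1. The labels call the samples biological replicates without naming animals, and p-values therefore measure the spread between these samples.

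The unfolded protein response adjusts the folding capacity of the ER. The sensors PERK, IRE1 and ATF6 lie in the ER membrane and are held inactive by the chaperone BiP. When unfolded proteins engage BiP, PERK slows translation and favours ATF4, IRE1 splices the mRNA of Xbp1, and ATF6 is cut to release a transcription factor. ATF6 and XBP1 raise chaperones, folding enzymes and degradation factors, whereas ATF4 raises CHOP and amino acid genes, an arm shared with other stresses and called the integrated stress response. In the cytosol, HSF1 is held by HSP70 and HSP90 and, once released, raises both with their co-chaperones. Splicing of Xbp1, translation of Atf4 and cleavage of ATF6 are not visible in the reads per gene used here, which measure RNA amounts.

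A sequence shared by ER chaperone promoters is the ER stress element, to which NF-Y and ATF6 bind at CCAAT and CCACG, 9 bases apart. RefSeq promoters of GRCm38.p6, matched by symbol, were found for 35 of the 41 genes and span 250 bases before to 50 bases after the start. The element was present on either strand in 7 of these 35 genes (20%), against 0.137% of 27025 genes with such a window. The 7 genes all encode ER chaperones or folding enzymes, and Hsp90b1 holds it in 2 places. Only the exact letters were searched. No match was found in the windows of the ER folding genes Pdia3, Pdia4, Dnajb9, Dnajb11 and Sdf2l1. The matches are shown because, among the 35 genes with a window, they fell only on ER folding genes. The bound letters are in capitals, each match read along its own strand in the direction from CCAAT to CCACG.
Hspa5, chr2:34772025-34772043, plus strand: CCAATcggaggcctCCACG
Calr, chr8:84847075-84847093, plus strand: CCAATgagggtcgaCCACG
Hsp90b1, chr10:86705638-86705656, minus strand: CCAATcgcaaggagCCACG
Hsp90b1, chr10:86705533-86705551, plus strand: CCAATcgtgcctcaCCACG
Canx, chr11:50325800-50325818, minus strand: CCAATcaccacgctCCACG
Pdia6, chr12:17266491-17266509, plus strand: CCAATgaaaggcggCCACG
Dnajc3, chr14:118937827-118937845, plus strand: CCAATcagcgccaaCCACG
Creld2, chr15:88819520-88819538, minus strand: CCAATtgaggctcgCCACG

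The 250 bases before the start of Hspa5, at chr2:34771840-34772089 on the plus strand, show the element in its setting, close to the start, with its CCAAT and CCACG in capitals.
Hspa5 promoter: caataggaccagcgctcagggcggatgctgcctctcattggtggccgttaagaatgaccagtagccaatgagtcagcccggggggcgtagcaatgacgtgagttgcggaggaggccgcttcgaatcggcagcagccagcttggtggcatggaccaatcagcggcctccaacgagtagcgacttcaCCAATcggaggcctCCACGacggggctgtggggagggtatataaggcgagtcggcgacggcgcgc

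The other arms had other letters. The ATF4 and C/EBP composite element, searched as TGATGNAA on both strands, was found in 4 of the 35 genes (11.4%), against 4.51% of all genes. A heat shock element, searched as 3 alternating units of GAA and TTC with 2 free bases between units, was found in 3 of the 35 (8.57%), against 0.662% of all genes. This search took only exact units, and the windows of Hspa1a, Hspa1b, Dnajb1, Hspb1 and Bag3 held no match. The XBP1 type element TGACGTGG was found in none of the 35 and in 0.714% of all genes. The integrated stress matches are shown with the fixed letters in capitals, since 3 of the 4 genes are ATF4 targets of that arm and Herpud1 belongs to ER-associated degradation. The heat shock matches at Hspd1 and Hspe1 are the same overlapping sites, because these head-to-head genes share 1 promoter, and are given along the strand of Hspe1.
Chac1, chr2:119351049-119351056, minus strand: TGATGcAA
Trib3, chr2:152344039-152344046, plus strand: TGATGtAA
Asns, chr6:7693225-7693232, minus strand: TGATGaAA
Herpud1, chr8:94386317-94386324, minus strand: TGATGcAA
Hspe1 and Hspd1, chr1:55088059-55088071, plus strand: TTCtaGAAccTTC
Hspe1 and Hspd1, chr1:55088064-55088076, plus strand: GAAccTTCcgGAA
Hsph1, chr5:149636288-149636300, minus strand: TTCtgGAAagTTC

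Such matches describe the windows and do not show binding in these samples. No promoter was matched for Hsp90aa1, Hsp90ab1, Hspa8, Atf6, Manf and Hsf1.

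Reads assigned to genes numbered 14583163 to 26975576 in the cKO libraries and 10510053 to 21096808 in the controls. Values are in normalised reads, counts that the authors scaled between libraries with DESeq2, on which 3 reads are worth 1.98 to 5.64. Library numbers are those of the deposited table's columns, and in each genotype libraries 1 to 3 held Y-linked reads while libraries 4 to 6, called without them here, held 0 to 3.09 normalised reads of 4 Y-linked genes. Mitochondrial ribosomal RNA took 1.78% to 6.00% of the reads in cKO libraries, and in control libraries 14.2% (library 4), 11.5% (library 5) and 1.46% to 5.88% (the other 4). Nsd1 itself was at 3251 ± 299 normalised reads in the cKO and 4235 ± 850 in the control (SD, n = 6 each). The groups overlapped, and its log2 fold change of -0.36 (SE 0.12) missed the threshold over all genes (limma, adjusted p = 0.383). The 10 cortical neuron markers summed to 106987 to 122737 normalised reads in cKO libraries and 90059 to 123808 in control libraries, while the 8 choroid plexus markers summed to 92.6 to 125 and 97.7 to 134.

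Set against control cortex, the cKO libraries address whether the stress response genes differ between the genotypes at 8 weeks. No gene of the list passed the threshold. The fitted differences were nonetheless mostly on the higher side, where 49.9% of all tested genes lay above 0. The median log2 fold change was 0.25 for ER chaperones and folding enzymes, all 13 of which lay above 0. It was 0.20 for cytosolic HSP70, HSP110 and HSP90 genes, all 7 of which lay above 0. Many of these genes had their extremes in the same libraries, so they are not independent of each other. The integrated stress genes, including Atf4, Ddit3 and Chac1, had a median of 0.0092. Bag3, a co-chaperone of HSP70 that guides clients to autophagy, came nearest to the threshold, with a log2 fold change of 0.46. Most of these differences were smaller without cKO library 4 and control libraries 4 and 5, as shown further on. The medians of the ER folding and the HSP70, HSP110 and HSP90 genes were then 0.07 and 0.03. In libraries with Y-linked reads alone they were 0.0056 (8 of 13 above 0) and -0.04 (1 of 7). In bulk tissue, a change in the number of cells of a type and a change in RNA per cell cannot be told apart.

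Of the 41 genes, 40 had a mean of at least 10 normalised reads and were tested on log2(value + 1), with genotype and a term for libraries with or without Y-linked reads. Trib3, a pseudokinase induced through ATF4 and CHOP, was below that level. Its values were 5.30, 5.94, 4.40, 0, 1.71 and 3.09 in cKO libraries 1 to 6 and 7.403, 6.163, 12.04, 0, 2.796 and 2.504 in control libraries 1 to 6. Most of these stand for a few reads, and no call was made: without the filter limma gave -0.33 (SE 0.39, adjusted p = 0.782), and DESeq2 gave -0.57 (SE 0.57, adjusted p = 0.868).

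None of the 40 genes was called at an adjusted p under 0.05 (limma), where 0.834% of 14397 tested genes were, 0.764% higher and 0.0695% lower in the cKO. edgeR and DESeq2 on the recovered reads also called 0 of the 40, beside 0.827% and 0.906% of all genes they tested. An unadjusted p under 0.05 was found for 10 of the 40 (25.0%) with limma, all higher in the cKO, against 9.73% of all genes in either direction, 4.61% higher and 5.13% lower. With edgeR 9 genes, with DESeq2 11 and with limma array weights 6 had such a p, where 9.89%, 8.15% and 9.10% of all genes did. The 10 genes were Hspa5, Pdia3, Pdia4, Pdia6, Calr, Sdf2l1, Creld2, Hspa8, Hspa4 and Bag3. The fitted fold change was above 0 for 34 of the 40 (85%), against 49.9% of all tested genes, and its median was 0.15, against -0.00069. Because the list was chosen with earlier results of these data known, these shares describe its genes and do not test them as a set. Every cKO library lay above every control library for 0.813% of all genes, and below for 0.194%. No gene of the list was separated in either way.

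**Figure D1:**
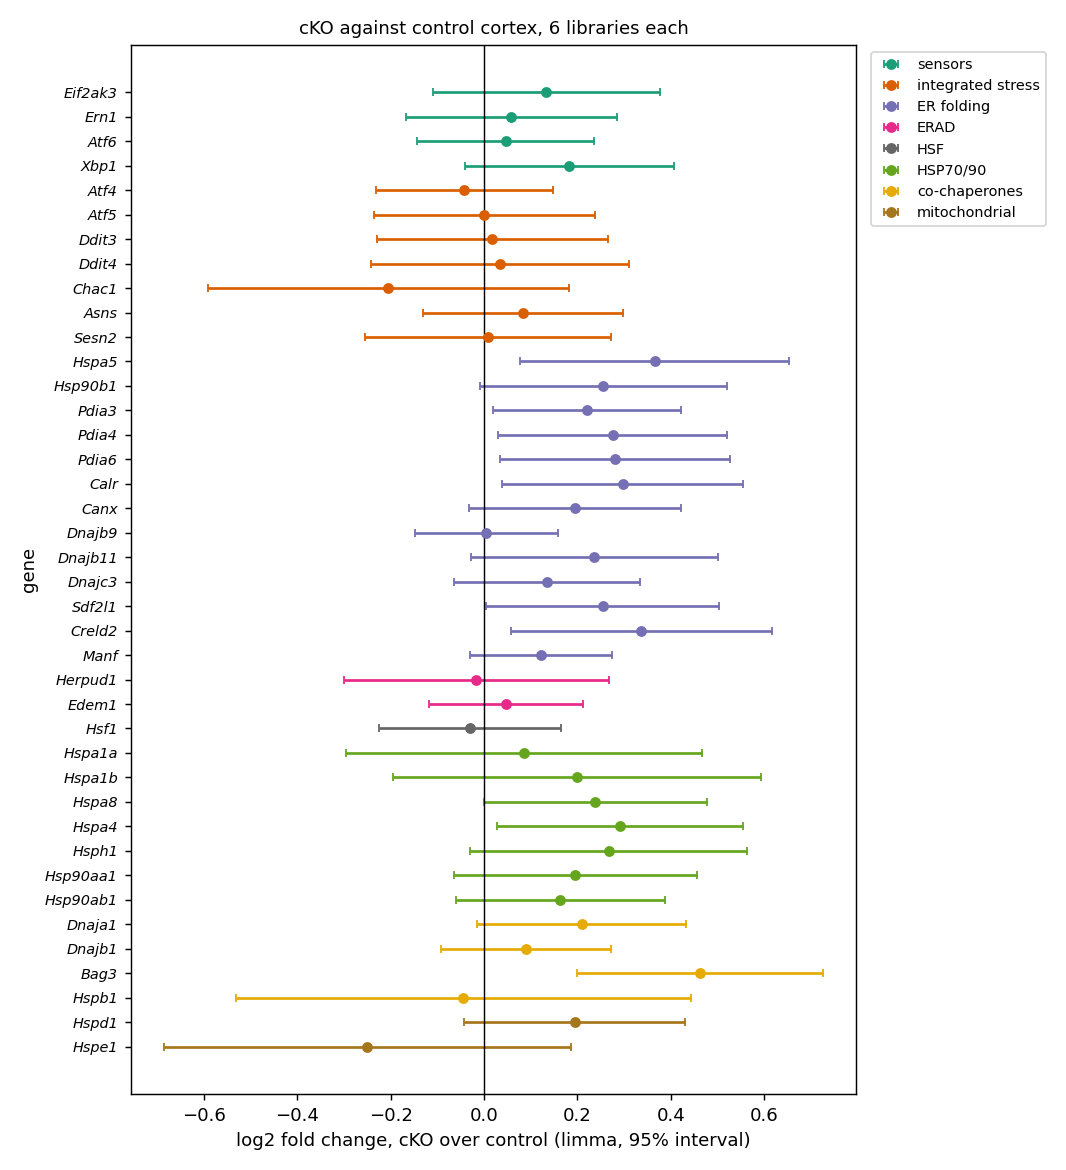
Log2 fold change of cKO over control (x axis, limma, 6 libraries each) for the 40 tested genes (y axis), coloured by role, with 95% intervals as bars. The 13 ER chaperones and folding enzymes all lie above 0 and the integrated stress genes lie around 0, while no gene passed the threshold over all genes.

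The sensors and their transcription factors had fitted fold changes between 0.05 and 0.18. Xbp1, the transcription factor spliced by IRE1, had a lowest, median and highest value of 1244, 1354 and 1655 normalised reads in the cKO and 988, 1258 and 1502 in the control. The 2 groups overlapped, and its lowest values were those of control libraries 4 and 5. The log2 fold change was 0.18 (SE 0.10, limma, adjusted p = 0.544). Eif2ak3, which encodes PERK, ranged from 492 to 637 around a median of 593 normalised reads in the cKO, and from 444 to 735 around a median of 476 in the control. Control libraries 1 and 2, at 633 and 735, stood at or above most cKO libraries while the other 4 controls lay below every cKO library. The fold change was 0.13 (SE 0.11, limma, adjusted p = 0.655). Ern1, which encodes IRE1, ranged from 119 to 163 normalised reads around a median of 137 in the cKO, and from 116 to 143 around a median of 136 in the control. Atf6 was at 1998 ± 113 and 1950 ± 292 (SD, n = 6 each). The groups overlapped for both, and their fold changes of 0.06 and 0.05 had limma adjusted p-values of 0.839 and 0.848.

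The integrated stress arm showed no common direction, with 5 of its 7 tested genes above 0 and fold changes between -0.20 and 0.08. Atf4, the transcription factor of the arm, had a lowest, median and highest value of 1524, 1897 and 2006 normalised reads in the cKO and 1676, 1828 and 2159 in the control. The groups overlapped, with cKO libraries 4 and 2 below every control library and control library 5 above every cKO library. Its log2 fold change was -0.04, with a 95% interval of -0.23 to 0.15 (limma, adjusted p = 0.867). Ddit3, which encodes the transcription factor CHOP, ranged from 235 to 343 normalised reads around a median of 278 in the cKO, and from 235 to 325 around a median of 273 in the control. Its fold change was 0.02, with an interval of -0.23 to 0.27 (limma, adjusted p = 0.964).

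Chac1, a glutathione-degrading enzyme and a target of ATF4, was the lowest of the arm by fold change. Its values in cKO libraries 1 to 6 were 140, 129, 150, 54.6, 116 and 106 normalised reads, and in control libraries 1 to 6 they were 149, 166, 175, 67.6, 110 and 133. The lowest library in each group was library 4. The log2 ratio of -0.20 (SE 0.18) missed the threshold (limma, adjusted p = 0.666). Asns, asparagine synthetase, ranged from 1369 to 1850 normalised reads around a median of 1691 in the cKO, and from 1253 to 1811 around a median of 1639 in the control (fold change 0.08, limma adjusted p = 0.748). Its groups overlapped, with library 4 the lowest in each. The transcription factor Atf5 was at 297 ± 41.2 and 297 ± 36.9 (SD, n = 6 each). Ddit4, an inhibitor of mTORC1, was at 981 ± 139 in the cKO and 981 ± 267 in the control, and Sesn2, a leucine sensor, at 208 ± 27.5 and 208 ± 34.3. Reads of Ddit3 and Atf5 are less certain, because each overlaps genes on the opposite strand (Mars, and Nup62 with Il4i1) and no source used here says whether reads were counted by strand.

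The ER chaperones and folding enzymes made up 7 of the 10 genes with an unadjusted p under 0.05. Hspa5 encodes BiP, the HSP70 of the ER and the inhibitor of the sensors. Its values were 6062, 4797, 4985, 7458, 5436 and 5912 normalised reads in cKO libraries 1 to 6, and 5529, 5208, 5001, 3527, 3327 and 4503 in control libraries 1 to 6. The groups overlapped, with cKO libraries 2 and 3 below control libraries 1 to 3, and the extremes were cKO library 4 and control libraries 4 and 5. The means were 5775 ± 962 in the cKO and 4516 ± 909 in the control (SD, n = 6 each). The log2 fold change was 0.37 (SE 0.14), with a 95% interval of 0.08 to 0.65 and a limma adjusted p of 0.448. In the authors' deposited table it has 0.37 (SE 0.14) and an adjusted p-value of 0.377.

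Hsp90b1, the HSP90 of the ER (GRP94), had a lowest, median and highest value of 5082, 5136 and 7471 normalised reads in the cKO and 3617, 4770 and 5614 in the control. In the cKO, 5 of the 6 libraries lay between 5082 and 5376 and only library 4 stood above, so the groups otherwise overlapped. The fold change was 0.26 (SE 0.12, limma, adjusted p = 0.519). Calr, calreticulin, the lectin chaperone of the ER lumen, ranged from 6154 to 8595 normalised reads around a median of 6788 in the cKO, and from 4273 to 7383 around a median of 5955 in the control. Control libraries 4 and 5 were again the lowest, and the fold change was 0.30 (SE 0.12, limma, adjusted p = 0.476). Creld2, an ER-stress-inducible protein with disulfide isomerase activity, ranged from 220 to 352 around a median of 247 in the cKO, and from 162 to 262 around a median of 198 in the control. All 6 cKO libraries lay above the control median, and 2 lay above every control library. Its fold change was 0.34 (SE 0.13, limma, adjusted p = 0.460).

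The protein disulfide isomerases, which form and rearrange disulfide bonds, had similar values. Pdia3, Pdia4 and Pdia6 had log2 fold changes of 0.22, 0.28 and 0.28, with limma adjusted p-values of 0.482, 0.477 and 0.476. Canx, the membrane lectin calnexin, was at 9424 ± 1548 normalised reads in the cKO and 8197 ± 886 in the control (SD, n = 6 each, fold change 0.19, limma adjusted p = 0.531). Dnajb11, a BiP co-chaperone, and Sdf2l1, which works with it, had fold changes of 0.24 and 0.25, with limma adjusted p-values of 0.527 and 0.506. Dnajc3, an inhibitor of PERK and a BiP co-chaperone, had 0.14, and Manf, a secreted ER stress protein with trophic effects on neurons, had 0.12. For Manf, 5 of the 6 cKO libraries lay above every control library, although the means were 2068 ± 138 and 1899 ± 95.4 (SD, n = 6 each, limma adjusted p = 0.547). Reads of Manf are less certain, because Rbm15b, at a mean of 1092 normalised reads, overlaps it on the same strand, and those of Hsp90b1 because Gm15344, at 296.9, does likewise.

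Dnajb9, which encodes the BiP co-chaperone ERdj4 and is a target of XBP1, lay nearest to 0 of the 13. It had a lowest, median and highest value of 565, 616 and 675 normalised reads in the cKO and 590, 610 and 650 in the control. The cKO libraries lay on both sides of the controls, and control library 4, the lowest or second lowest for most of the ER folding genes, was its highest control. The fold change was 0.0051, with an interval of -0.15 to 0.16 (limma, adjusted p = 0.984). Both genes of ER-associated degradation also lay near 0. Herpud1, which organises the degradation complex, ranged from 597 to 1043 normalised reads around a median of 848 in the cKO, and from 750 to 1049 around a median of 793 in the control (fold change -0.02, limma adjusted p = 0.971). Edem1, a mannosidase-like protein that selects misfolded glycoproteins, ranged from 412 to 479 around a median of 459 in the cKO, and from 385 to 472 around a median of 447 in the control (fold change 0.05, limma adjusted p = 0.817). The groups overlapped for both.

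The 7 genes with the ER stress element, shown above, were all above 0, with a median log2 fold change of 0.28. The other 6 ER chaperones and folding enzymes were also all above 0, with a median of 0.23. Among these is Manf, which had no promoter to search, so whether it holds the element is unknown. The ER and integrated stress genes outside the folding group had a median of 0.03, with 10 of 13 above 0. As a group, the ER and integrated stress genes had a median of 0.13, with 23 of 26 above 0.

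**Figure D2:**
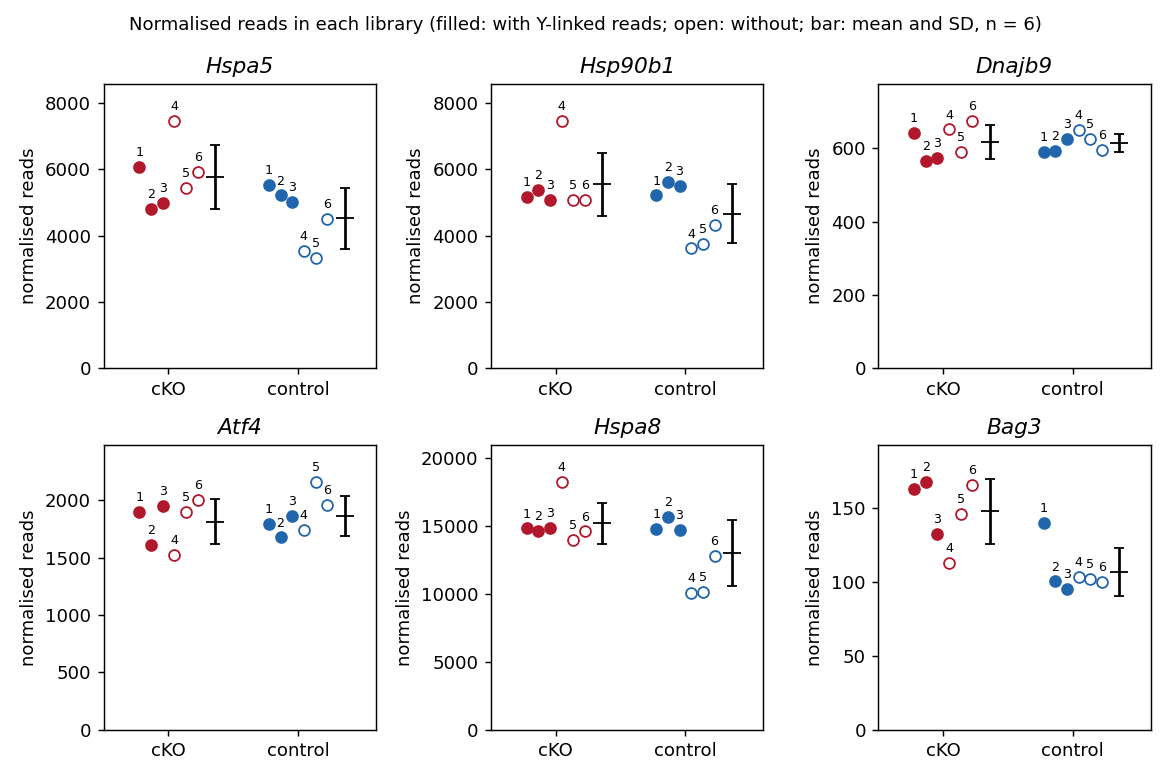
Normalised reads (y axis) in each cKO and control library for 6 genes, with library numbers beside the points, filled points for libraries with Y-linked reads, open points for those without, and the mean with its SD (n = 6) as a bar. In Hspa5, Hsp90b1 and Hspa8 the extremes are cKO library 4 and control libraries 4 and 5, whereas in Bag3 cKO library 4 is the lowest of the cKO and control library 1 the highest of the controls.

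In the cytosol, Hsf1, the transcription factor of the heat shock response, ranged from 335 to 445 normalised reads around a median of 369 in the cKO, and from 320 to 456 around a median of 385 in the control. The groups overlapped, with library 1 the highest in each. Its fold change was -0.03, with an interval of -0.22 to 0.16 (limma, adjusted p = 0.911). Hspa8, the constitutive HSP70, had a lowest, median and highest value of 13927, 14710 and 18204 normalised reads in the cKO and 10054, 13723 and 15643 in the control. Of the cKO libraries, 5 lay between 13927 and 14860, and control libraries 1 to 3 lay within or above that range. cKO library 4 stood above all other libraries, and control libraries 4, 5 and 6 below them. Its fold change was 0.24 (SE 0.11, limma, adjusted p = 0.512). Hspa4 and Hsph1 encode HSP110 proteins, which exchange the nucleotide of HSP70. Hspa4 ranged from 4730 to 7780 normalised reads around a median of 5291 in the cKO, and from 3812 to 5774 around a median of 4380 in the control (fold change 0.29, SE 0.12, limma adjusted p = 0.481). Hsph1 ranged from 4694 to 7779 around a median of 5124 in the cKO, and from 3425 to 5960 around a median of 4473 in the control (fold change 0.27, SE 0.14, limma adjusted p = 0.527). In both genes the highest of the 12 values was cKO library 4.

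Of the cytosolic HSP90 genes, the constitutive Hsp90ab1 had the highest level per length of the 41 genes, at 10365 normalised reads per kilobase of transcript in the cKO and 9277 in the control, ahead of Hspa8 at 4802 and 4118 and Calr at 3186 and 2627. The inducible Hsp90aa1 stood below these, at 1896 and 1653. The fold changes of Hsp90ab1 and Hsp90aa1 were 0.16 and 0.20, with limma adjusted p-values of 0.572 and 0.566.

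The inducible HSP70 genes Hspa1a and Hspa1b, which HSF1 raises strongly under heat, were among the weakest, at 23.1 and 24.8 normalised reads per kilobase in the cKO and 22.0 and 21.3 in the control. Hspa1a had a lowest, median and highest value of 47.5, 71.8 and 81.0 normalised reads in the cKO and 41.3, 63.6 and 85.4 in the control. Hspa1b had 40.5, 69.2 and 88.7 in the cKO and 43.3, 58.3 and 72.6 in the control. For both, the groups overlapped, and the lowest cKO library was library 3. Fold changes were 0.09 and 0.20, with limma adjusted p-values of 0.864 and 0.681. Their open reading frames are 99.43% identical over 1929 aligned positions, so the reads cannot be divided with certainty between them. Summed, they came to 138 ± 28.3 normalised reads in the cKO and 125 ± 22.1 in the control (SD, n = 6 each). An exact permutation test of genotype, without the Y-linked term, gave p = 0.379 (two-sided, the smallest possible being 0.00216). Hspa8, Hspd1 and Hspe1 also have processed copies elsewhere in the genome, and no source used here says how reads matching several places were counted.

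Among the co-chaperones, Bag3 had 163, 168, 133, 113, 146 and 166 normalised reads in cKO libraries 1 to 6, and 140, 100.4, 95.5, 103, 102 and 100.2 in control libraries 1 to 6. All cKO libraries lay above the control median and 4 lay above every control, with cKO libraries 3 and 4 below control library 1 as the overlap. The means were 148 ± 21.9 in the cKO and 107 ± 16.4 in the control (SD, n = 6 each). The fold change was 0.46 (SE 0.12), with an interval of 0.20 to 0.73, and missed the threshold over all genes (limma, adjusted p = 0.153). It was higher in the cKO in both sets of libraries, by 0.47 with Y-linked reads and 0.45 without. In the authors' deposited table it has 0.47 (SE 0.14) and an adjusted p-value of 0.0798. Bag3 was called when libraries were weighted by their quality (limma array weights, adjusted p = 0.0191, 1.17% of all genes called) and when cKO library 4 was left out (limma, adjusted p = 0.0475, 0.854% of all genes called). These calls are not separate, since cKO library 4 had the lowest array weight, 0.226, and the lowest Bag3 value of the cKO. The adjusted p lay between 0.0191 and 1.00 over all 28 alternatives, the highest being that of the 3 libraries a group with Y-linked reads taken alone.

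Dnaja1, an HSP40 of the cytosol, ranged from 1737 to 2703 normalised reads around a median of 2034 in the cKO, and from 1561 to 2050 around a median of 1781 in the control. Its fold change was 0.21 (SE 0.11, limma, adjusted p = 0.520), and its reads are less certain because Smu1 overlaps it on the opposite strand. Dnajb1, the stress-inducible HSP40, ranged from 981 to 1302 around a median of 1088 in the cKO, and from 911 to 1200 around a median of 1020 in the control, with overlapping groups (fold change 0.09, limma adjusted p = 0.690). The small heat shock protein Hspb1 ranged from 22.4 to 57.5 normalised reads in the cKO and from 32.6 to 41.3 in the control, so that its cKO libraries lay on both sides of the controls (fold change -0.04, limma adjusted p = 0.953).

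The mitochondrial chaperonin genes Hspd1 (HSP60) and Hspe1 (its co-chaperonin HSP10) share the promoter with the heat shock sites shown above. Hspd1 had 1662, 1709, 1607, 2433, 1719 and 1627 normalised reads in cKO libraries 1 to 6, and 1725, 1781, 1639, 1310, 1366 and 1539 in control libraries 1 to 6. Hspe1 had 601, 429, 637, 1098, 565 and 584 in cKO libraries 1 to 6, and 474, 476, 792, 1248, 1169 and 646 in control libraries 1 to 6. cKO library 4 was high for both, whereas control libraries 4 and 5 were the lowest for Hspd1 and the highest for Hspe1. The fold changes were 0.19 (SE 0.11, limma, adjusted p = 0.544) and -0.25 (SE 0.21, limma, adjusted p = 0.640). Reads of the pair overlap on opposite strands at their ends.

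Across libraries, many of the genes kept the same order of extremes. cKO library 4 was the highest of the 12 libraries for 21 of the 40 genes (52.5%), against 20% of all tested genes. Control library 4 or 5 was the lowest for 22 of the 40 (55.0%), against 23.8%. Control libraries 4 and 5 were the lowest pair for 18 of the 40 (45.0%), against 11.7%. Both held for 16 of the 40 (40.0%), against 4.67%, and these were 9 of the 13 ER folding genes together with Hspa8, Hspa4, Hsph1, Hsp90aa1, Hsp90ab1, Dnaja1 and Hspd1. The ER folding genes deviated on average by 0.43 (log2) in cKO library 4, and by -0.36 and -0.31 in control libraries 4 and 5. Their mean deviation lay between -0.12 and 0.17 in the other 9 libraries. That of the HSP70, HSP110 and HSP90 genes was 0.37, -0.33 and -0.34 in the same 3 libraries. The mean of the integrated stress genes went the other way in cKO library 4, at -0.28, its lowest value of all 12 libraries. Chac1 deviated most there, at -1.11, and the other tested genes of the arm except Ddit3 lay between -0.33 and -0.07. Ddit3 was at 0.31 and had its highest value in that library.

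**Figure D3:**
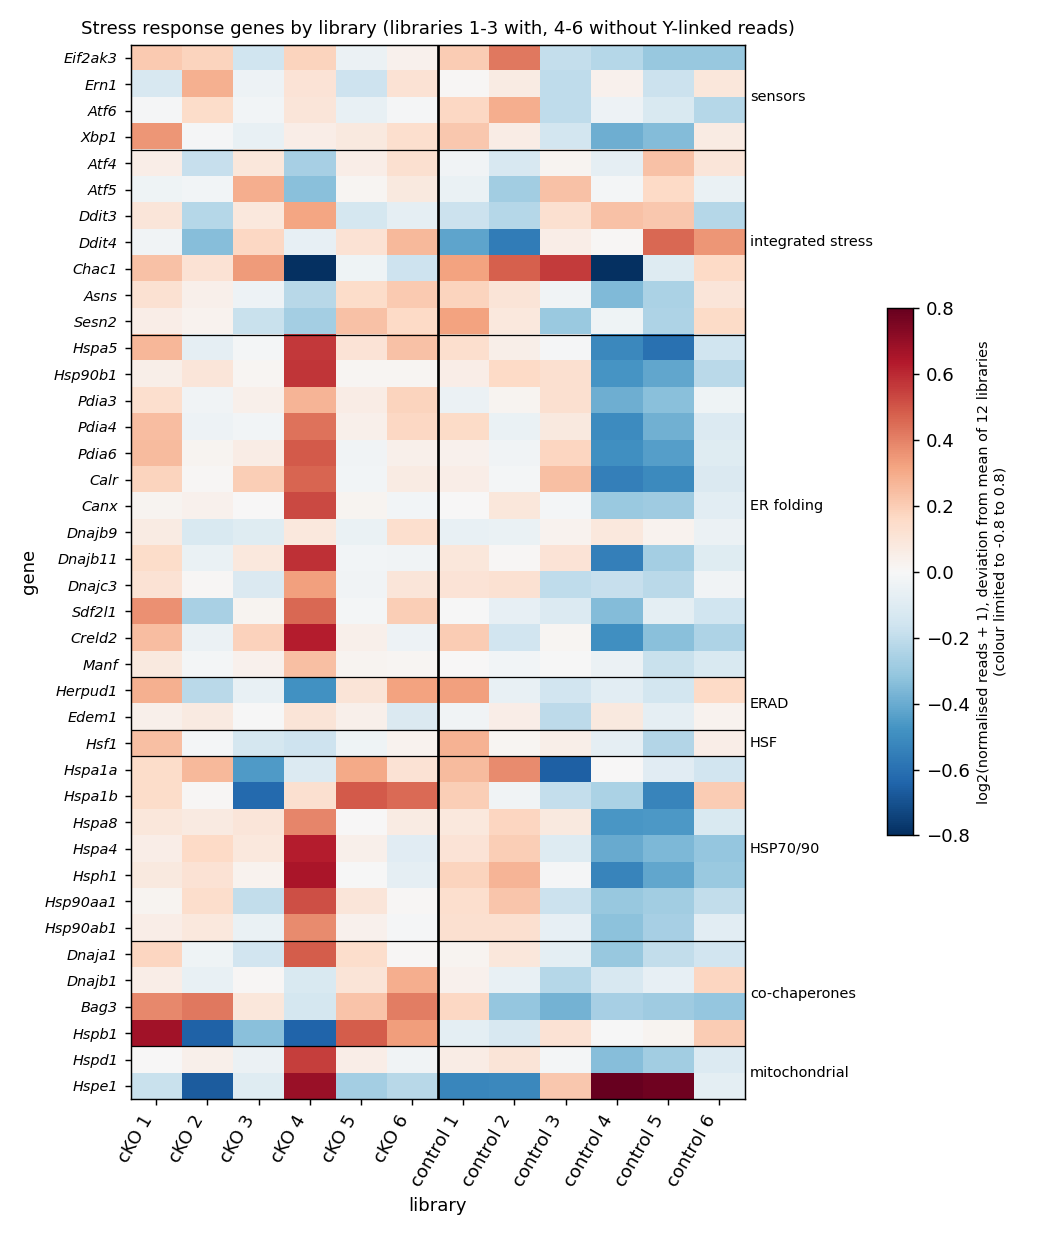
Deviation of log2(normalised reads + 1) from the mean of the 12 libraries (colour) for the 40 tested genes (rows, by role) in cKO libraries 1 to 6 and control libraries 1 to 6 (columns). Most ER folding and HSP70/90 genes are highest in cKO library 4 and lowest in control libraries 4 and 5, while several integrated stress genes are lowest in cKO library 4.

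Over the 12 libraries, with log2 values, Hspa5 correlated with Pdia4 at Pearson's r = 0.972 and Spearman's rho = 0.937 (permutation p = 4e-05 each, adjusted over the 5 relations computed 0.0002). With Hsp90b1 r was 0.904 (permutation p = 0.00072, adjusted 0.0012) and rho 0.622 (p = 0.0345, adjusted 0.0574). With the cytosolic Hspa8 r was 0.931 (permutation p = 0.0005, adjusted 0.0012) and rho 0.671 (p = 0.0194, adjusted 0.0486). With Hspa1b r was 0.585 (permutation p = 0.0494, adjusted 0.0494) and rho 0.545 (p = 0.0709, adjusted 0.0887). Without the 2 libraries farthest from the median of the second gene, r was 0.957, 0.792, 0.790 and 0.518 in this order. Those left out were cKO library 4 and control library 4 for Pdia4 and Hsp90b1, and control libraries 4 and 5 for Hspa8. For Hspa1b they were cKO library 3 and control library 5. As cKO library 4 and control libraries 4 and 5 were never left out together, these values do not show the relations without them. The 12 libraries differ in genotype and depth, and the permutations took no account of genotype or of the Y-linked set. Differences between groups and single extreme libraries therefore enter these p-values, which describe the libraries as a set and do not test joint regulation. With the percent of mitochondrial ribosomal RNA, Hspa5 had r = -0.759 (permutation p = 0.0132, adjusted 0.0165) and rho = -0.462 (p = 0.136, adjusted 0.136). That relation rested on control libraries 4 and 5, since without them r was -0.121.

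The effect of genotype was next taken within each set of libraries, 3 against 3. In the libraries without Y-linked reads, the median was 0.48 for the ER folding genes (13 of 13 above 0) and 0.50 for the HSP70, HSP110 and HSP90 genes (7 of 7). In the libraries with Y-linked reads, the medians were 0.0056 (8 of 13 above 0) and -0.04 (1 of 7). Hspa5 had 0.73 (SE 0.14) without Y-linked reads and was called there with the spread of all 12 libraries (limma, adjusted p = 0.0416, with 0.493% of all genes called and 0.389% higher), but not in a fit of those 6 libraries alone (limma, adjusted p = 0.136). With Y-linked reads it had 0.0033, and none of the 40 genes was called there (0.250% of all genes). The difference between the sets was tested directly and passed for no gene of the list and for 0% of all genes (limma, smallest adjusted p = 0.562). Its unadjusted p was under 0.05 for 14 of the 40 genes (35.0%), all with the lower effect in the libraries with Y-linked reads, against 8.77% of all genes in either direction and 3.36% in that direction. The set without Y-linked reads holds cKO library 4 and control libraries 4 and 5, so the set and these libraries cannot be told apart.

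**Figure D4:**
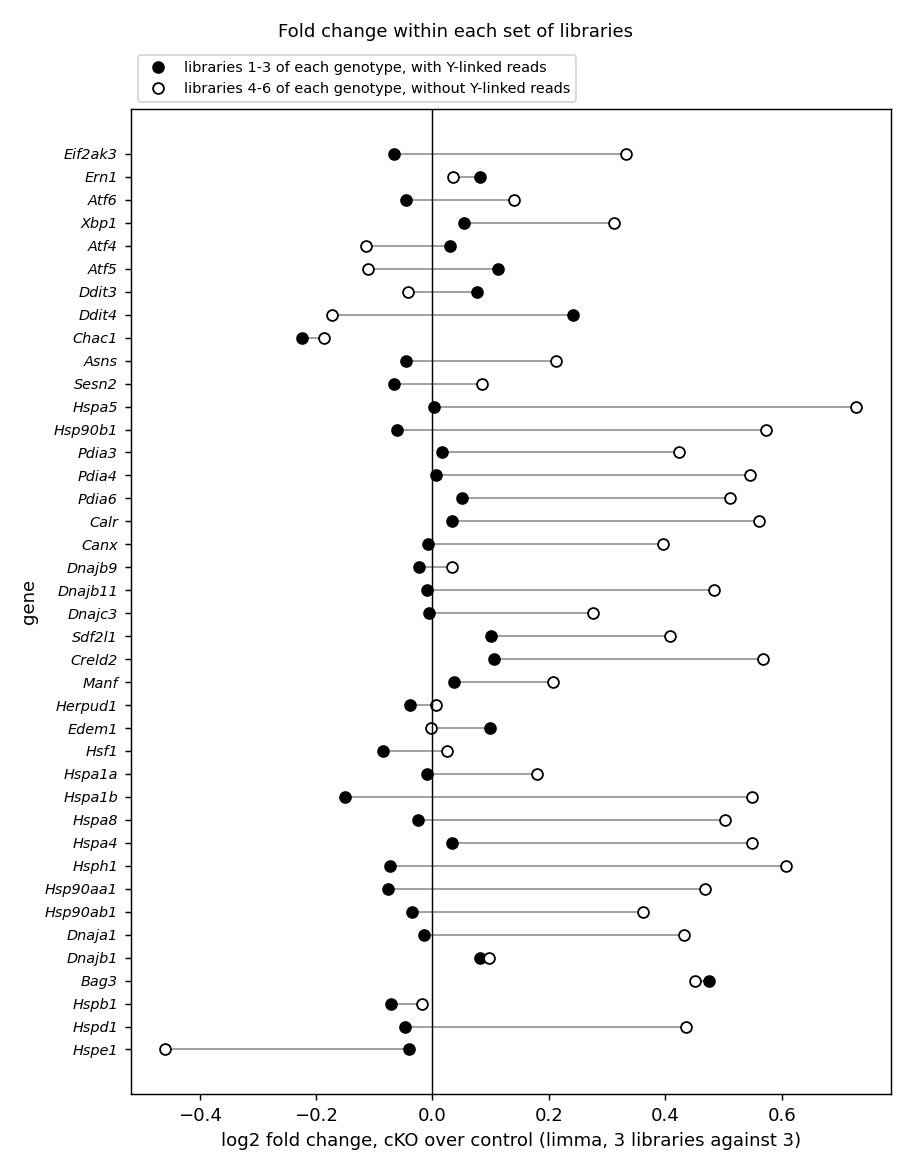
Log2 fold change of cKO over control (x axis, limma, 3 libraries against 3) for the 40 tested genes (y axis), within libraries with Y-linked reads (filled) and without them (open). Hspa5 lies at 0.0033 with and 0.73 without Y-linked reads, whereas Bag3 lies at 0.47 and 0.45.

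Leaving out control libraries 4 and 5 together lowered the medians. That of the ER folding genes was then 0.10, with 13 of 13 above 0. That of the HSP70, HSP110 and HSP90 genes was 0.08, with 6 of 7 above 0, and that of all tested genes -0.0033. An unadjusted p under 0.05 was then found for 1 of the 40, Bag3, against 4.10% of all genes. With cKO library 4 left out as well, the medians were 0.07 (13 of 13) and 0.03 (6 of 7), and that of all 40 genes was 0.03. The 13 ER folding genes then lay between 0.01 and 0.15, and the median of all tested genes was -0.0015. An unadjusted p under 0.05 was then found for Bag3 and Chac1, or 5.00% of the 40, against 5.14% of all genes, where Bag3 had a fold change of 0.52 (SE 0.13, limma, adjusted p = 0.202) and Hspa5 one of 0.10 (SE 0.09, limma, adjusted p = 0.961). Leaving out cKO library 4 alone left 3 of the 40 (7.50%, against 7.78% of all genes).

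Several other measures moved with these libraries, and their part in the results was not tested. cKO library 4 had the fewest reads assigned to genes of the cKO, 14583163. Control libraries 4 and 5 had the fewest of the controls, 10510053 and 13497073, with control library 6 close at 13757044. For the 32 ribosomal protein genes of the cytosol the median fold change on the log2 scale was -0.38, with 0 above 0, and they summed to 52717 to 68730 normalised reads in cKO libraries and 51274 to 116337 in control libraries. They deviated on average by 0.71 and 0.79 (log2) in control libraries 4 and 5. The red blood cell markers, 5 tested, had a median of -0.69, with 0 above 0, and summed to 857 to 1739 in cKO libraries and 1011 to 3582 in control libraries, where libraries 4 and 5 had the highest mean deviations of 0.69 and 0.83. Neuron markers had a median of 0.10 (8 of 10 above 0), and their mean deviation was -0.21 and -0.27 in control libraries 4 and 5 and -0.0051 in cKO library 4. Astrocyte markers had a median of 0.04 (5 of 8) and included the water channel gene Aqp4, the only marker called, which was higher in the cKO by 0.53 (limma, adjusted p = 0.00973). Oligodendrocyte, microglial, vascular and choroid plexus markers had medians of -0.02 (3 of 8 above 0), 0.02 (4 of 8), -0.05 (2 of 8) and -0.06 (1 of 3 tested).

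The summed levels of the glial and vascular lists overlapped between the groups. Astrocyte markers summed to 125437 to 163099 normalised reads in cKO libraries and 116234 to 186181 in control libraries, and oligodendrocyte markers to 74051 to 103122 and 73195 to 125474. Microglial markers summed to 5583 to 6877 in cKO libraries and 5498 to 6706 in control libraries, and vascular markers to 3180 to 3944 and 3321 to 4325. With a linear trend in transcript length removed from each library, the median of the ER and integrated stress genes was 0.14 and that of the cytosolic and mitochondrial group 0.20, close to the 0.13 and 0.19 without it.

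Beyond the 41 genes, further genes of the same pathways gave no call either. Of 37 tested genes of ER folding, translocation and redox, 20 were above 0 (median 0.02), the lowest unadjusted p-values being those of the peroxiredoxin Prdx4 (-0.32, limma, adjusted p = 0.457) and the ER oxidase gene Ero1l (0.24, limma, adjusted p = 0.472). Of 20 other ER-associated degradation genes 16 were above 0 (median 0.07), with Sel1l, the partner of the HRD1 ligase, at 0.29 (limma, adjusted p = 0.476) and Edem3 at 0.26 (limma, adjusted p = 0.518). Of 15 other sensors and regulators 12 were above 0 (median 0.06), with Wfs1, an ER membrane protein that restrains ATF6, at 0.26 (limma, adjusted p = 0.477). Of 34 other integrated stress genes 19 were above 0 (median 0.04), with the arginine transporter gene Slc7a3 at 0.31 (limma, adjusted p = 0.457). These counts differed between the sets of libraries. With Y-linked reads, 16 of the 37, 7 of the 20, 9 of the 15 and 18 of the 34 were above 0. Without them, 22, 16, 12 and 19 were, in the same order.

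Of 47 other cytosolic chaperones and heat shock targets, 32 were above 0 (median 0.08). Hspa12b, a distant HSP70 relative known from endothelium, was at 182 ± 34.8 normalised reads in the cKO and 134 ± 24.8 in the control (SD, n = 6 each), a fold change of 0.43 (SE 0.10) that narrowly missed the threshold (limma, adjusted p = 0.0651) and was alike in both sets (0.43 with Y-linked reads and 0.44 without). Dnajb5, an HSP40 gene, was at 2676 ± 255 and 2022 ± 677 (fold change 0.47, limma, adjusted p = 0.401). Of 14 other mitochondrial chaperones and proteases 10 were above 0 (median 0.04), with the protease subunit gene Clpp at -0.30 (limma, adjusted p = 0.476). In the libraries with Y-linked reads, 13 of the 47 and 4 of the 14 were above 0, against 34 and 10 in those without. Glucocorticoid-responsive genes, which follow handling and stress hormones, had a median of 0.08 with 8 of 12 above 0, and Per1, a clock gene that glucocorticoids also induce, had a fold change of 0.36 (limma, adjusted p = 0.379).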

How the data were processed

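Ribosomal-RNA-depleted, strand-keeping RNA libraries of 6 cKO and 6 control cortices were analysed from the authors' deposited table of 34193 genes. Its signal values are counts that the authors normalised with DESeq2, per the file headers. The same deposited table gives the authors' log2 fold change with its standard error, the Wald statistic as a score, and a p-value with its adjusted form. Bowtie, STAR, Trim Galore, bedtools and the build mm9 are named, per the submitters' processing notes. Versions, the gene annotation, the use of strand in counting and the treatment of reads matching several places are not given in the sources used here.

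Whole reads were recovered from the steps of the values, with 100% of the values above 0 within 0.01 of a whole number. DESeq2 on these reads gave fold changes within 9.24e-09 of those in the deposited table. The table's columns carry genotype and a number from 1 to 6 that did not match the sex and replicate labels of single samples, so columns were tied to genotype only. Libraries were divided by the sum of 4 Y-linked genes, above or below 100 normalised reads. No column of sample values was left unused (0).

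Genes averaging at least 10 normalised reads were tested with limma 3.58.1 in R 4.3.3 (two-sided, with an intensity trend) on log2(value + 1), with genotype and the Y-linked term. Fold changes on this scale understate those of low genes. Calls used a Benjamini-Hochberg adjusted p under 0.05 over all tested genes. Differences between the Y-linked sets were tested as an interaction. The script was checked on simulated data that held no outlying libraries and no effect of the Y-linked set, so the check does not cover these. Alternatives were pseudocounts of 0.5 and 5, no filter and a mean of at least 50, TMM and quantile scaling, edgeR 4.0.16 and DESeq2 1.42.0 on recovered reads, genotype alone, a replicate block, array weights, removal of a transcript length trend, leaving out each library or control libraries 4 and 5, and each Y-linked set alone. Leaving out cKO library 4 together with control libraries 4 and 5 was added after seeing the data.

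The 41 genes and the other lists were chosen with earlier results of these data known. Values in every library, or their lowest, median and highest, are given for 10 defining genes and for up to 3 genes of each role with the lowest unadjusted p. Up to 2 genes of each other list are named by the same rule. Other values per gene are descriptions. Promoters came from RefSeq, GRCm38.p6, matched by symbol. Protein ends were planned and not analysed, since no protein table was used here. Counts per library bound the precision: 3 reads are worth 1.98 to 5.64 normalised reads.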

Additional observations from a re-analysis of the deposited data

Results flagged for a closer look

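A gap test was applied to the values of each of the 41 genes in each genotype, dividing the distance of the highest or lowest library from its neighbour by the range of the 6 libraries and setting it against Dixon's 95% critical value. Of 82 groups of 6 libraries, 11 passed it, where chance gives about 1 in 20. Among all 14397 tested genes, 14.5% passed in the cKO and 3.27% in the control, beside 10 (25.0%) and 1 of the 40 tested genes of the list. With library 4 as the highest of the cKO, 7.05% of all genes passed. In 10 of the 11, cKO library 4 was the highest of the cKO libraries. These were the ER genes Canx (0.917), Hsp90b1 (0.877), Dnajb11 (0.729) and Manf (0.657), the cytosolic chaperone genes Hsph1 (0.785), Hspa8 (0.782), Hsp90ab1 (0.714) and Hspa4 (0.702), and the mitochondrial chaperonin genes Hspd1 (0.865) and Hspe1 (0.69). The genes share the library, so the 10 are not independent of each other. In the eleventh, Bag3 in the control, library 1 stood above the other 5 (0.823), at 140 against 95.5 to 103 normalised reads.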

How the results depend on the processing

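The number of the 40 genes called, 0, was 1 with array weights and 0 to 1 over single left-out libraries (Bag3 both times, the second time without cKO library 4), and 0 under every other alternative. The median of the ER and integrated stress genes was 0.011 in libraries with Y-linked reads alone (15 above 0) and 0.24 in those without. The median of the cytosolic and mitochondrial group was 0.072 without control libraries 4 and 5, 0.027 also without cKO library 4, -0.038 with Y-linked reads alone (3 above 0) and 0.43 without. The cause was not tested. Single left-out libraries gave medians of 0.09 to 0.15 (20 to 24 above 0) and 0.12 to 0.25 (10 to 13 above 0) for the 2 groups.

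For the 24 genes chosen by the naming rule, signs turned as follows. With Y-linked reads alone, fold changes were -0.067 for Eif2ak3, 0.030 for Atf4, -0.045 for Asns, -0.061 for Hsp90b1, -0.0087 for Hspa1a, -0.15 for Hspa1b, -0.025 for Hspa8, -0.073 for Hsph1, -0.014 for Dnaja1 and -0.047 for Hspd1. Without Y-linked reads they were -0.041 for Ddit3, 0.0069 for Herpud1, -0.0025 for Edem1 and 0.024 for Hsf1. With the length trend removed they were -0.0079 for Ern1, 0.014 for Atf4, 0.043 for Herpud1 and -0.0053 for Edem1, and with array weights 0.0034 for Atf4 and 0.051 for Herpud1. Without control libraries 4 and 5 they were -0.049 for Asns, -0.050 for Hspa1b and 0.020 for Hspe1, and also without cKO library 4 they were 0.020 for Atf4, -0.0071 for Asns and -0.022 for Hspa1b. Over single left-out libraries, ranges were -0.073 to 0.019 for Atf4, -0.043 to 0.063 for Ddit3, -0.094 to 0.084 for Herpud1, -0.072 to 0.013 for Hsf1 and -0.047 to 0.19 for Hspa1a. None of these genes was called under any of these settings. Over all 40 genes, 18 signs turned with Y-linked reads alone and 6 without, the other 8 and 2 being Atf6, Sesn2, Canx, Dnajb9, Dnajb11, Dnajc3, Hsp90aa1 and Hsp90ab1, and Atf5 and Ddit4. Hspb1 was positive with edgeR (0.052), DESeq2 (0.054), array weights (0.16), the length trend removed (0.088) and without control libraries 4 and 5 and cKO library 4 (0.014).

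Calls among all genes numbered 120, against 58 of 12299 with a mean of at least 50, 17 with Y-linked reads alone and 21 without. With the replicate block for the column number, 118 genes and 0 of the 40 were called, with group medians of 0.13 and 0.19. Deviations of same-numbered libraries correlated at 0.341, 0.497, 0.354, 0.095, 0.091 and 0.256, and since 2 were under 0.1 the numbers were not taken as pairs. cKO libraries 1, 2, 3 and 6 correlated best with their own number, and cKO libraries 4 and 5 with another. Depth limits Trib3, at 0 to 12.04 normalised reads.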
